A study of Mus musculus with 12 samples.

Results

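The 9 genes described here make up the front end of bacterial sensing in mouse liver: the LPS carriers Lbp and Cd14, the receptors and receptor subunits Tlr4, Ly96, Tlr2, Tlr5, Nod1 and Il1r1, and the adaptor Myd88. They were taken by symbol, 9 of the 41128 genes in the expression table. All 12 libraries came from C57BL/6 mice born germ-free and kept in sterile isolators until weaning at about 21 days. At weaning, littermates were split. The germ-free (GF) group of 3 males and 3 females remained in isolators, and the conventionalized (CV) group of 3 males and 3 females moved to cages with soiled bedding from elsewhere in the facility, a source of microbes whose composition the labels do not give. Livers were taken at 6 weeks of age, after 3 weeks of conventionalization, and each library held the liver of a single mouse. The labels name no transgene or mutation, and do not say which GF and CV mice were littermates of each other.

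Lipopolysaccharide (LPS), the outer membrane glycolipid of Gram-negative bacteria, reaches the liver in portal blood. LPS-binding protein, the product of Lbp, is made by hepatocytes and carries LPS monomers to CD14, which hands them to TLR4 bound to MD-2, the product of Ly96. TLR2 recognises bacterial lipoproteins, TLR5 flagellin and NOD1 fragments of peptidoglycan inside the cell, while IL1R1 is the signalling receptor for interleukin-1. MYD88 is the adaptor that couples the interleukin-1 receptor and most Toll-like receptors to NF-kB.

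Values are reads per gene divided by a size factor for each library, as deposited. Library depth ranged from 5993619 to 10975691 reads in GF and from 8890529 to 15290835 in CV. The composition of the libraries moved with the condition. A set of 7 loci rich in ribosomal or mitochondrial ribosomal RNA reads took 41.8 to 69.4% of reads in GF and 5.39 to 21.9% in CV, so that the reads left for all other genes ranged from 1834565 to 5303292 in GF and from 6943462 to 14411498 in CV. This share and the condition cannot be told apart in these libraries. The third library labelled CV male went against its label: it held 0 reads from Y-linked genes and an Xist value of 2382. The other 5 libraries labelled male held 796 to 1314 Y-linked reads and Xist values of 4.68 to 21.3. Those labelled female held 0 to 1 Y-linked reads and Xist values of 1045 to 11928. The members' changes over both sexes and in males are given with and without this CV library. Hepatocyte markers were abundant in all libraries, and the Kupffer cell markers Clec4f, Vsig4 and Timd4 were at 0 in none.

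In the annotation of GRCm38 (GENCODE release M21), Lbp lies on the plus strand at chr2:158306493-158332852, Il1r1 on the plus strand at chr1:40225080-40317257 and Myd88 on the minus strand at chr9:119335934-119341411. Myd88 shares 290 of its 2576 exon bases, 11.3%, with Acaa1a, a peroxisomal thiolase gene on the opposite strand. Il1r1 overlaps a transcript model of unsettled status outside its exons, and the members other than Myd88 share no exon base with another annotated gene. Promoter sequences were available from RefSeq (GRCm38.p6) for 5 of the 9 members, in 7 records. Those of Il1r1 and Myd88 are shown because both genes changed between GF and CV. Each is the 250 bases before a transcription start, written 5′ to 3′ along the gene, with capitals marking a motif match on either strand. Lbp, Cd14, Tlr4 and Ly96 had no entry.

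Il1r1, start 1, chr1:40224830-40225079, plus strand: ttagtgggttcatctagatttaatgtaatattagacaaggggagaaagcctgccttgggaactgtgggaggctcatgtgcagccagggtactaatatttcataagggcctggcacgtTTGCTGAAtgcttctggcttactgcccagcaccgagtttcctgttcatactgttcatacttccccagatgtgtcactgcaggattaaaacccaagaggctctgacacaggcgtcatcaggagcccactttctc
Il1r1, start 2, chr1:40266336-40266585, plus strand: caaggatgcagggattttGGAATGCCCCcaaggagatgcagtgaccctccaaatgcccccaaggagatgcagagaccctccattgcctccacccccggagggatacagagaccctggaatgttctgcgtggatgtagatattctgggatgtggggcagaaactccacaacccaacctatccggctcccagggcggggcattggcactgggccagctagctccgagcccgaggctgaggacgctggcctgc
Myd88, start 1, chr9:119340019-119340268, minus strand: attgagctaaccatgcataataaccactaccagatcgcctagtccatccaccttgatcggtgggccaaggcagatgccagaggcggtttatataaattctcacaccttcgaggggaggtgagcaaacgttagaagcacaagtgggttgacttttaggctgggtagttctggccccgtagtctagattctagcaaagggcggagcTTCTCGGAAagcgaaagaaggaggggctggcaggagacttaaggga

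The motifs searched on both strands were TTGCNNAA for C/EBP factors, TTCNNNGAA for STAT factors and the NF-kB decamer. The first Il1r1 promoter held the C/EBP match TTGCTGAA, 133 to 126 bases before the start. The second held an NF-kB decamer, GGAATGCCCC as read on the gene's strand, 232 to 223 bases before the start, and the Myd88 promoter held the STAT match TTCTCGGAA, 46 to 38 bases before it. None of these 3 matches overlapped another. Of 32851 promoters of the same length, 9.56% held a C/EBP match, 7.02% a STAT match and 7.25% an NF-kB decamer, so each match is a description of the sequence and not a binding site.

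The first question was whether exposure to microbes changed the abundance of these transcripts. Over both sexes, Lbp rose 1.81-fold and Myd88 rose 1.57-fold in CV livers, while Il1r1 fell to 0.41 of its GF level. These were 3 of the 8 members tested, where 61.1% of all 11782 genes tested were called, 32.3% as higher and 28.7% as lower. The share of members called was thus below the background of this comparison and is no sign of a response particular to them. The members' median change was 0.08 and that of all genes 0.07, on the log2 scale. Changes are differences in log2(value + 1), which understate the change of low genes, and were tested with limma at an adjusted p of 0.05. In whole liver, fewer cells of a type and less RNA per cell cannot be told apart.

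**Figure D1:**
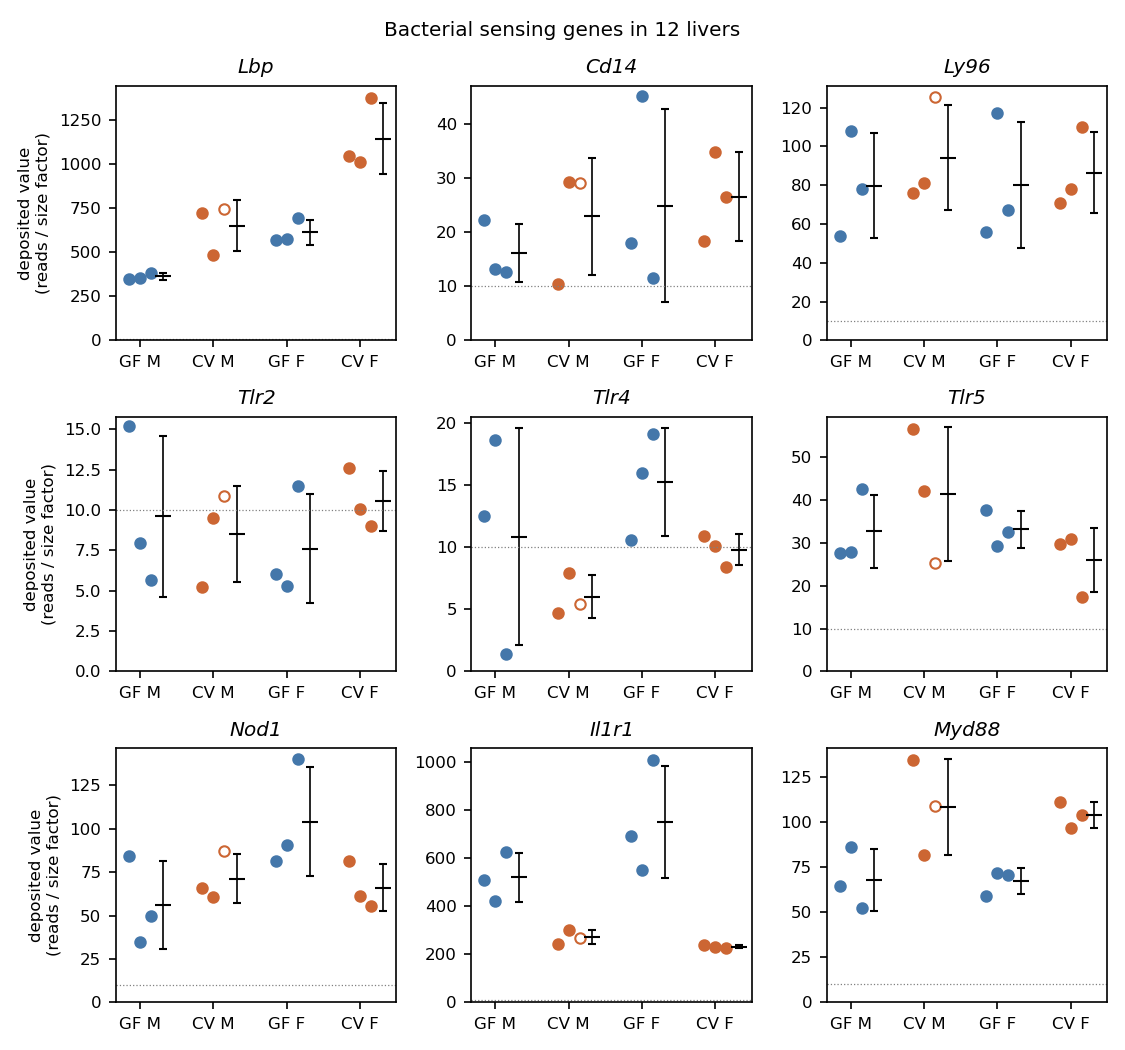
Deposited value (reads divided by the size factor of the library) of each of the 9 members in every library, with the mean and SD of the 3 libraries of each group in black. The open point is the library labelled CV male 3, the dotted line is a value of 10, and the scales start at 0 and differ between panels; Lbp was higher and Il1r1 lower in CV than in GF within each labelled sex, with no overlap.

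Lbp, the LPS carrier of plasma, separated GF from CV in both sexes. In GF males it measured 347, 357 and 385, and in CV males 721, 483 and 748. In GF females it measured 568, 577 and 696, and in CV females 1045, 1012 and 1376. Every CV library exceeded every GF library of its sex, as it did for 22.0% of all genes tested in males and 34.0% in females. The change was 0.85 ± 0.17 (SE) over both sexes (adjusted p = 0.000366, limma, n = 6 per condition). It was 0.82 in males (adjusted p = 0.0182, limma) and 0.89 in females (adjusted p = 0.00451, limma), with a female minus male difference of 0.07 (95% interval −0.63 to 0.78). The male change was 0.70 without the library CV male 3 (adjusted p = 0.0647, limma) and 0.78 without GF male 1 (adjusted p = 0.0628, limma), and neither passed the test. Of the 8 hepatocyte markers, 5 rose and 0 fell over both sexes, where 32.3% of all genes tested rose and 28.7% fell. In males 0 of the 8 were called, where 14.1% of all genes rose. In females 4 rose and 0 fell, where 29.8% of all genes rose. The markers' summed level ranged from 98843 to 442683 in GF and from 360153 to 597671 in CV. Their part in the Lbp result was not tested.

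Lbp was also the only member called between the sexes. It was lower in males by a log2 difference of −0.79 ± 0.17 (SE, adjusted p = 0.0244, limma), where 1.16% of genes were called and 0.433% were called lower in males and 0.73% higher. The male and female libraries did not overlap in GF, where 18.7% of genes were without overlap, nor in CV, where 10.9% were. CV male 3 was counted there under its label. Without the library CV male 3 the difference was −0.85 (adjusted p = 0.0171, limma). The call rested on a narrow margin, since it was lost in 9 of the 12 fits that each left out 1 library, with differences of −0.83 to −0.69 and the highest adjusted p at 0.110 without CV female 3 (limma).

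Cd14, the LPS co-receptor of macrophages, was low. It ranged from 12.8 to 22.4 in GF males, from 11.5 to 45.2 in GF females, from 10.4 to 29.4 in CV males and from 18.5 to 34.9 in CV females, on 6 to 52 reads. The groups overlapped in both sexes. The difference was 0.33 (95% interval −0.43 to 1.09, adjusted p = 0.439, limma), which leaves room for a rise or a fall at this depth. Of the Kupffer cell and macrophage markers, 7 of 12 rose and 0 fell, where 32.3% of all genes tested rose and 28.7% fell. Their summed levels were 1282 to 2418 in GF and 1733 to 4102 in CV, and a difference between their change and that of Cd14 was not tested. The median change of these 12 markers was 0.93, against 0.07 for all genes. Clec4f, 1 of the 12 and a defining marker of Kupffer cells, differed by 0.23 (adjusted p = 0.268, limma) and was not among those called.

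The signalling receptor for LPS showed no detectable difference. Tlr4 had a mean of 10.5 over the 12 libraries, just above the minimum mean of 10 set for testing, and was below 10 in 5 libraries. It measured 12.5, 18.6 and 1.42 in GF males, 10.6, 16.0 and 19.2 in GF females, 4.68, 7.95 and 5.45 in CV males, and 10.9, 10.1 and 8.43 in CV females. Its lowest value, in GF male 3, rested on 1 read. The difference was −0.44 (95% interval −1.44 to 0.56, adjusted p = 0.432, limma), and it became −0.90 (adjusted p = 0.0421, limma) without that library, so 1 library decided the call. Tlr4 group means were 10.9 in GF males, 15.2 in GF females, 6.03 in CV males and 9.81 in CV females. It thus reached the minimum of 10 through GF, and a call of lower in CV is not independent of that filter. Ly96, whose product completes the receptor, ranged from 53.7 to 117 in GF and from 71.1 to 125 in CV. Its difference was 0.21 (95% interval −0.29 to 0.70, adjusted p = 0.461, limma).

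Tlr2 was the only member with a mean below 10. Its mean of 9.09 kept it out of the test, it was below 10 in 7 libraries, and it rested on 2 to 30 reads. It measured 15.2, 7.98 and 5.67 in GF males, 6.04, 5.32 and 11.5 in GF females, 5.20, 9.54 and 10.9 in CV males, and 12.6, 10.1 and 9.03 in CV females. The groups overlapped in both sexes. The remaining 7 members were below 10 in no library.

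Tlr5, the flagellin receptor, ranged from 27.8 to 42.5 in GF and from 17.5 to 56.7 in CV, with a difference of −0.04 (95% interval −0.57 to 0.49, adjusted p = 0.894, limma). Nod1 measured 84.2, 34.6 and 49.6 in GF males and 66.1, 60.4 and 87.2 in CV males. In females it measured 81.5, 90.4 and 140 in GF and 81.2, 61.1 and 55.4 in CV. The male groups overlapped, and the female groups were parted only by the small gap between 81.2 and 81.5, in a comparison where 64.9% of all genes were without overlap. Over both sexes the Nod1 difference was −0.11 (95% interval −0.59 to 0.38, adjusted p = 0.705, limma). The female minus male difference in its change was −1.04 ± 0.46 (SE), with an unadjusted p of 0.0376 and an adjusted p of 0.424 in limma.

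Il1r1 showed the widest separation between conditions of the 9 members. It measured 510, 425 and 628 in GF males and 244, 303 and 268 in CV males. In females it measured 693, 553 and 1010.2 in GF and 237, 232 and 226 in CV. Every CV library was below every GF library, in both sexes. Within a sex, 21.1% of all genes tested were lower without overlap in males and 31.0% in females. The change was −1.29 ± 0.18 (SE) over both sexes (adjusted p = 1.55e-05, limma), −0.92 in males (adjusted p = 0.0126) and −1.65 in females (adjusted p = 6.05e-05). The male change was −0.78 without GF male 3 (adjusted p = 0.0661, limma) and −0.92 without CV male 3 (adjusted p = 0.0302, limma). The larger change in females was not called as a difference between the sexes (−0.73, 95% interval −1.47 to 0.02, adjusted p = 0.430, limma). Sinusoidal endothelial markers were lower in 2 of 8 cases and higher in 0 over both sexes, where 28.7% of all genes tested fell. In males 1 of 8 was lower, where 15.4% of all genes were, and the markers' median change was 0.08. In females 2 of 8 were lower, where 26.0% of all genes were, with a median of −0.47. Summed levels were 1345 to 3109 in GF and 686 to 1889 in CV, and the markers' part in the Il1r1 result was not tested.

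Myd88 was higher in CV. It measured 64.5, 86.5 and 52.4 in GF males, 58.9, 71.8 and 70.9 in GF females, 135, 81.9 and 109 in CV males, and 111, 96.7 and 104 in CV females. The groups did not overlap in females, where 34.0% of all genes were higher without overlap, while in males CV male 2 lay below GF male 2. The change was 0.65 ± 0.19 (SE) over both sexes (adjusted p = 0.00640, limma). It did not pass the test within males (0.67, 95% interval 0.12 to 1.23, adjusted p = 0.0635, limma) or within females (0.63, 95% interval 0.07 to 1.18, adjusted p = 0.0523, limma). Acaa1a, whose exons overlap those of Myd88 on the opposite strand, rose by 1.12 ± 0.18 (SE, adjusted p = 5.48e-05, limma), from 696 to 1244 in GF to 1676 to 2506 in CV. The libraries were stranded, but whether counting used the strand is not given in the sources used here, so the part of Acaa1a reads in the Myd88 values was not tested.

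**Figure D2:**
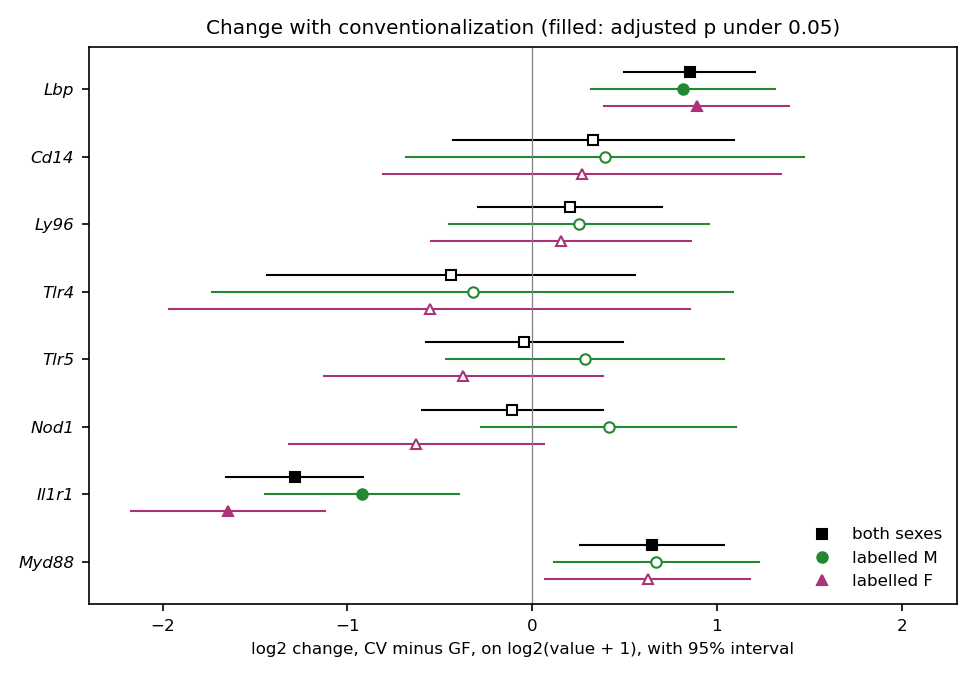
Log2 change (CV minus GF) of the 8 tested members on the x axis, with its 95% interval, over both sexes (squares) and in libraries labelled male (circles) and female (triangles), filled where the limma adjusted p was under 0.05. Lbp and Il1r1 were called in all 3 comparisons, Myd88 over both sexes alone, and the other 5 members in none.

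Within each labelled sex, 2 of the 8 tested members were called, Lbp and Il1r1. In males the background was 29.5% of genes called, 14.1% as higher and 15.4% as lower. In females it was 55.8%, 29.8% as higher and 26.0% as lower. The members' median change was 0.34 in males and −0.11 in females, against 0.06 and 0.08 for all genes. In males, 2 members did not overlap between conditions, Lbp being higher and Il1r1 lower, where 43.0% of all genes were without overlap, 22.0% higher and 21.1% lower. In females 4 did not, Lbp and Myd88 being higher and Nod1 and Il1r1 lower, where 64.9% of genes were without overlap, 34.0% higher and 31.0% lower. Without CV male 3, 2974 genes were called in males, against 3474 with it, and Il1r1 alone of the members was called there. Over both sexes the changes without it were 0.80 for Lbp (adjusted p = 0.00126), 0.64 for Myd88 (adjusted p = 0.0134) and −1.28 for Il1r1 (adjusted p = 4.00e-05), all called by limma. The other members, none of them called, were at 0.22 for Cd14, −0.42 for Tlr4, 0.11 for Tlr5, 0.09 for Ly96 and −0.18 for Nod1, so that the near-zero value of Tlr5 turned sign. In males the values without it were 0.65 for Myd88 (adjusted p = 0.125, limma), 0.16 for Cd14, −0.27 for Tlr4, 0.59 for Tlr5, 0.03 for Ly96 and 0.26 for Nod1. The female minus male differences in the change were then −0.89 for Nod1, −0.73 for Il1r1 and 0.19 for Lbp, with limma adjusted p of 0.635, 0.631 and 0.877. No member was called for a difference between the sexes in its change, and limma called 0 genes (percent called 0.0), with 1382 genes at an unadjusted p under 0.05, edgeR calling 0 and DESeq2 23.

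The direction of Lbp and Il1r1 against each other did not depend on any scaling. The ratio of Lbp to Il1r1 reads within a library, which no size factor enters, was 0.614 to 0.840 in GF males and 0.689 to 1.04 in GF females. It was 1.60 to 2.95 in CV males and 4.35 to 6.09 in CV females. Every CV library lay above every GF library, the library CV male 3 being at 2.79. Both genes were picked from these same libraries, where Lbp was higher and Il1r1 lower without overlap within each sex. The ratio therefore had to separate within each sex, and its separation is no further support for either change. A ratio shows that the 2 transcripts changed unequally and not by how much each changed.

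**Figure D3:**
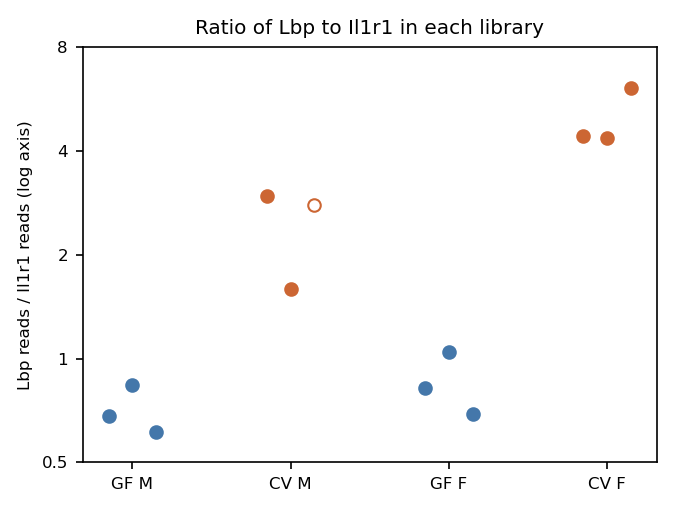
Ratio of Lbp reads to Il1r1 reads in each of the 12 libraries, on a log axis, by group. The open point is the library labelled CV male 3; GF libraries sit between 0.614 and 1.04 and CV libraries between 1.60 and 6.09.

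The change of each transcript taken alone did depend on scaling. The median change of all genes was 0.07 with the deposited size factors, 0.62 when libraries were scaled to all reads and −0.38 when they were scaled to reads outside the 7 abundant loci. The share of called genes that were higher in CV was 52.9%, 78.6% and 30.6% in turn. Lbp changed by 0.85, 1.41 and 0.39 on these scales, and the last did not pass the test (adjusted p = 0.0603, limma). Relative to the median gene, its change was 0.78, 0.79 and 0.77. Scaling shifts all genes of a library nearly alike, so values relative to the median gene had to be close on these 3 scales. Their closeness is therefore no test of a change. Myd88 changed by 0.65, 1.20 and 0.19 (adjusted p = 0.377 for the last, limma), which was 0.57, 0.58 and 0.57 relative to the median gene. Il1r1 fell on all 3 scales, with changes of −1.29, −0.73 and −1.75, or −1.36, −1.35 and −1.37 relative to the median gene. Cd14 and Ly96 were called higher when scaled to all reads (0.87 and 0.76) and had negative values when scaled to reads outside the abundant loci (−0.11 and −0.25). Nod1, Tlr4 and Tlr5 also turned sign between these scalings. Within the sexes the scaling changed which members were called. In males, scaling to all reads lost the Il1r1 call (−0.61, adjusted p = 0.153, limma) and gave one to Myd88 (0.98, adjusted p = 0.0170, limma). Scaling to reads outside the abundant loci lost the Lbp call in males (0.51, adjusted p = 0.128, limma) and in females (0.27, adjusted p = 0.359, limma). In females it also called Nod1 lower (−1.24, adjusted p = 0.0165, limma) and Tlr5 lower (−0.97, adjusted p = 0.0465, limma).

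Removing the trend of the changes with transcript length and GC content lowered all 3 called changes. Lbp became 0.52 (adjusted p = 0.00939, limma), Il1r1 became −0.85 (adjusted p = 0.000418, limma) and Myd88 became 0.30, which did not pass the test (adjusted p = 0.155, limma). Relative to the median gene these changes were 0.41, −0.96 and 0.19 in turn. With the mitochondrial ribosomal RNA share of each library as a covariate, no gene was called over both sexes. Differences among the 4 groups made up 93.5% of the variance of that covariate, so this fit had little of the group difference left to test.

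**Figure D4:**
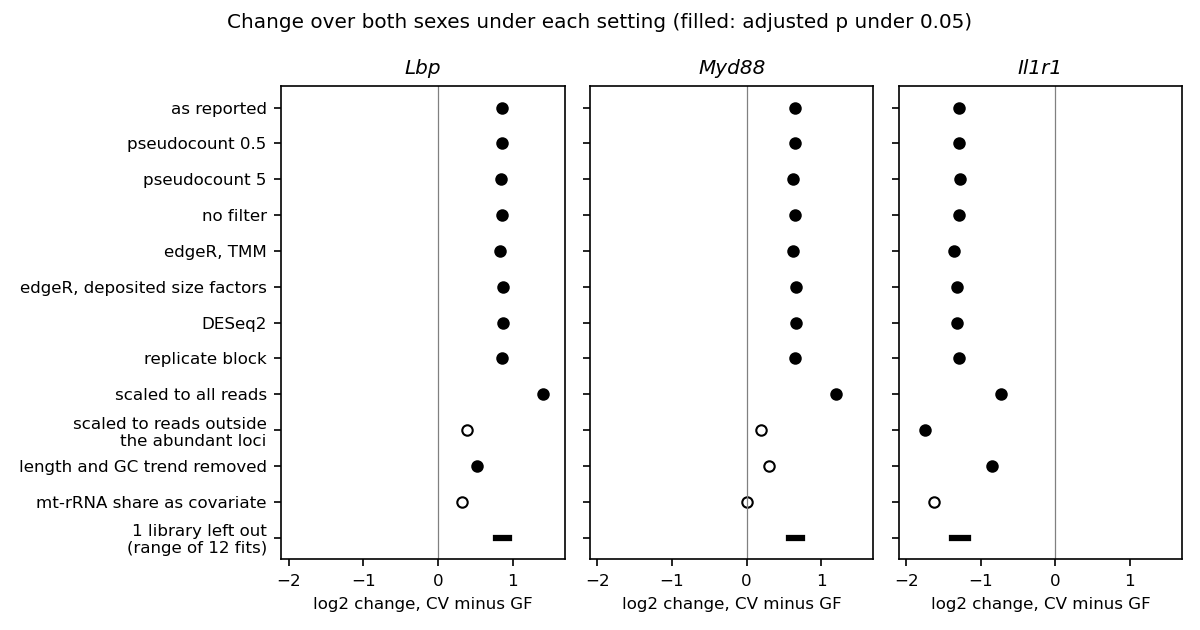
Log2 change (CV minus GF over both sexes) of Lbp, Myd88 and Il1r1 on the x axis under each analysis setting, filled where the adjusted p was under 0.05; the bar gives the range over the 12 fits that each left out 1 library, in all of which the 3 genes were called. Il1r1 sits below 0 and Lbp above 0 in every setting drawn, and Myd88 lies at 0.01 with the ribosomal share as covariate.

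Levels were compared between members per kilobase of exon, within each group, since the order differed between groups. The length was the union of exons over all annotated transcripts: 4831 bases for Lbp, 6363 for Il1r1 and 1021 for Ly96. Their longest transcripts hold 2525, 5819 and 666 bases, a length that would raise Lbp most and Il1r1 least. The order and closeness of members given here therefore hold for the exon union only. In GF males Il1r1 at 81.8 ± 16.0, Ly96 at 78.2 ± 26.5 and Lbp at 75.1 ± 4.18 per kb (SD, n = 3) were not separated beyond their spread. In GF females Lbp at 127 ± 14.8 and Il1r1 at 118 ± 36.8 were likewise close on this length, with Ly96 at 78.3 ± 31.9. In CV males Lbp measured 135 ± 30.1, Ly96 92.2 ± 26.6 and Il1r1 42.7 ± 4.65, and in CV females Lbp measured 237 ± 41.7, Ly96 84.6 ± 20.5 and Il1r1 36.4 ± 0.903. In CV females the lowest Lbp library, at 209 per kb, was above the highest Ly96 library, at 108, while in CV males the lowest Lbp library, at 100.1, was below the highest Ly96 library, at 123.

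Myd88 lay below Il1r1 in GF, at 26.3 ± 6.71 per kb in males and 26.1 ± 2.81 in females, and was close to it in CV, at 42.1 ± 10.3 and 40.4 ± 2.78. Without CV male 3, the other CV males were at 149 and 100.1 for Lbp, 74.4 and 79.4 for Ly96, 38.4 and 47.6 for Il1r1 and 52.3 and 31.8 for Myd88. The remaining members were lower, with means over the 12 libraries of 14.6 for Nod1, 13.1 for Cd14, 6.96 for Tlr5, 3.02 for Tlr2 and 1.89 for Tlr4. Tlr5 was above Tlr2 in all 12 libraries, whereas Nod1 was above Cd14 in 7.

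The genes with profiles most like those of the called members were found by the root mean square difference of centred log2 profiles over the 12 libraries. The nearest to Lbp were Ifngr1, Slc40a1 and Mmp14, each at 0.24, where the Lbp profile itself varied by 0.61. The nearest to Il1r1 were Polr3a at 0.15, Eif4enif1 at 0.16 and Clip1 at 0.16, against 0.71 for Il1r1 itself. The nearest to Myd88 were Chmp2b at 0.12, Eefsec at 0.13 and Cyb5r4 at 0.13, against 0.39. Of members not called, Tlr4, on 1 to 26 reads, had Zfp97 as its closest gene at 0.51, where Tlr4 varied by 0.82. The closest to Cd14, on 6 to 52 reads, was Col6a2 at 0.30, where Cd14 varied by 0.62.

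The lists of other pathway genes are described against the same background over both sexes, in which 61.1% of all genes were called, and none of their counts is read as particular to a list. Among 21 other pattern recognition receptors, 10 were abundant enough to test, of which 2 rose and 4 fell, where 32.3% of all genes tested rose and 28.7% fell. Their median change was −0.66. Nlrp6, an inflammasome sensor of the gut and liver, fell by 2.70 ± 0.27 (SE) on the log2 scale, from 2398 to 7688 in GF to 425 to 1163 in CV (adjusted p = 1.22e-06, limma). Naip6, a paralog of the flagellin sensor Naip5, fell by 3.10 ± 0.45 (adjusted p = 2.90e-05, limma), and Naip5, named after its values were seen, fell by 3.02. These paralogs are closely related in sequence, so their separate counts are uncertain. Also lower was Aim2, a sensor of cytosolic DNA, at −1.65 (adjusted p = 0.00736, limma). Pglyrp2, a secreted amidase that cleaves peptidoglycan, rose by 1.69 ± 0.23 (adjusted p = 1.84e-05, limma), and Tlr12 rose by 2.65 (adjusted p = 0.000506, limma). Aim2 and Tlr12 were named after their values were seen. In CV males and females, Naip6 averaged 4.87 and 1.97, Naip5 5.84 and 6.39, and Aim2 6.92 and 4.98. These genes were below the minimum mean of 10 in CV and reached it through their GF levels. Their calls as lower are thus not independent of that filter, and their sizes rest on low CV values. Tlr12 averaged 12.8 in GF males and 8.09 in GF females. Tlr3, the receptor for double-stranded RNA, differed by −0.19 (adjusted p = 0.591, limma) and Naip2 by −0.56 (adjusted p = 0.172, limma).

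Of the 12 genes of LPS handling and receptor folding, 11 were tested, 4 rose and 0 fell, beside 32.3% higher and 28.7% lower over all genes, with a median of 0.44. Pltp, the plasma phospholipid transfer protein, rose by 2.91 ± 0.33 (SE), from 26.8 to 115 in GF to 255 to 867 in CV (adjusted p = 3.24e-06, limma). Alpl, an alkaline phosphatase able to dephosphorylate LPS, rose by 1.19 ± 0.30 (adjusted p = 0.00257, limma). Cnpy3, a chaperone of Toll-like receptors, rose by 0.57 ± 0.17 (adjusted p = 0.00988, limma). Hsp90b1, the other chaperone of these receptors, differed by −0.36 (adjusted p = 0.113, limma). Scaled to all reads, 8 genes of this group rose and 0 fell. Scaled to reads outside the abundant loci, 1 rose and 3 fell, and with the length and GC trend removed 2 rose and 2 fell.

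Downstream, 24 of 26 adaptors and kinases were tested, 3 rose and 7 fell, beside 32.3% higher and 28.7% lower over all genes, with a median of −0.12. Ube2n, the ubiquitin-conjugating enzyme used by TRAF6, rose by 1.10 ± 0.17 (SE, adjusted p = 5.42e-05, limma). Nfkb1, which encodes the p50 precursor of NF-kB, fell by 0.87 ± 0.16 (adjusted p = 0.000170, limma). Chuk, the kinase IKK-alpha, fell by 0.93 ± 0.17 (adjusted p = 0.000225, limma). Irak1 (0.16) and Irf3 (−0.32) did not pass. The balance of this group turned with scaling, with 11 genes higher and 0 lower when libraries were scaled to all reads, and 1 higher and 14 lower when scaled to reads outside the abundant loci.

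Inhibitors of the pathway numbered 14, of which 11 were tested, 3 rose and 2 fell, beside the same 32.3% and 28.7% of all genes, with a median of 0.16. Sigirr, a membrane receptor that dampens IL-1 and Toll-like receptor signalling, rose by 1.18 ± 0.18 (SE), from 43.9 to 95.1 in GF to 111 to 208 in CV (adjusted p = 3.91e-05, limma). Tollip, a Toll-interacting protein, rose by 1.04 ± 0.20 (adjusted p = 0.000279, limma) and Nlrx1, a mitochondrial NOD-like protein, by 1.12 ± 0.28 (adjusted p = 0.00225, limma). Nfkbia, the NF-kB inhibitor and target, differed by −0.16 (adjusted p = 0.390, limma). Scaled to all reads, 5 inhibitors were higher and 0 lower, and scaled to reads outside the abundant loci, 2 were higher and 4 lower.

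The list of the IL-1 and IL-18 system holds ligands and partners of Il1r1 along with genes of IL-18. Of its 12 listed genes, 7 were tested, 3 rose and 1 fell, with a median of 0.42. The share of calls was near the 61.1% of all genes, of which 32.3% rose and 28.7% fell. Il1rn, the IL-1 receptor antagonist, rose by 2.27 ± 0.33 (SE), from 2.83 to 16.0 in GF to 13.5 to 105 in CV (adjusted p = 2.71e-05, limma). Il1a, an agonist of the receptor, fell by 1.25 ± 0.26 (adjusted p = 0.000602, limma), and Il18bp, the soluble inhibitor of IL-18, rose by 0.83 ± 0.18 (adjusted p = 0.000834, limma). Il1rap, the co-receptor of Il1r1 and named after its values were seen, rose by 0.84 ± 0.20 (adjusted p = 0.00175, limma). Il18 differed by 0.42 (adjusted p = 0.0587, limma). With scaling to reads outside the abundant loci, 1 gene of this system was higher and 3 were lower.

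Of 17 genes that LPS induces in liver, 12 were tested, 6 rose and 2 fell over both sexes, with a median of 1.03. The share of calls was near the 61.1% of all genes, of which 32.3% rose and 28.7% fell. In males 1 rose and 2 fell, where 14.1% of all genes rose and 15.4% fell. In females 6 rose and 2 fell, where 29.8% rose and 26.0% fell. The 6 that rose over both sexes were Orm1, Orm2, Saa1, Saa2, Hp and Lcn2, all but Orm1 named after their values were seen. Orm1 rose by 1.74 ± 0.28 (SE, adjusted p = 6.10e-05, limma). Both that fell encode chemokines, as does Cxcl1, which differed by 0.26 (adjusted p = 0.577, limma) and was not called. Ccl5 fell by 2.14 ± 0.22 (adjusted p = 1.96e-06, limma) and Ccl4 fell by 2.41 ± 0.44 (adjusted p = 0.000211, limma). Of 8 lymphocyte markers 4 were tested and all 4 fell over both sexes, where 28.7% of all genes tested fell. Their summed level was 122 to 223 in GF and 36.7 to 52.5 in CV. Blood markers were lower in 4 of 5 cases over both sexes, with summed levels of 2777 to 32885 in GF and 916 to 3159 in CV. In males 1 of these 5 was lower, where 15.4% of all genes were, and in females 4, where 26.0% were. The part of either marker group in the chemokine results was not tested. Tnf and Il6, the classic cytokines of LPS signalling, were below 5 in every library and were not tested.

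**Figure D5:**
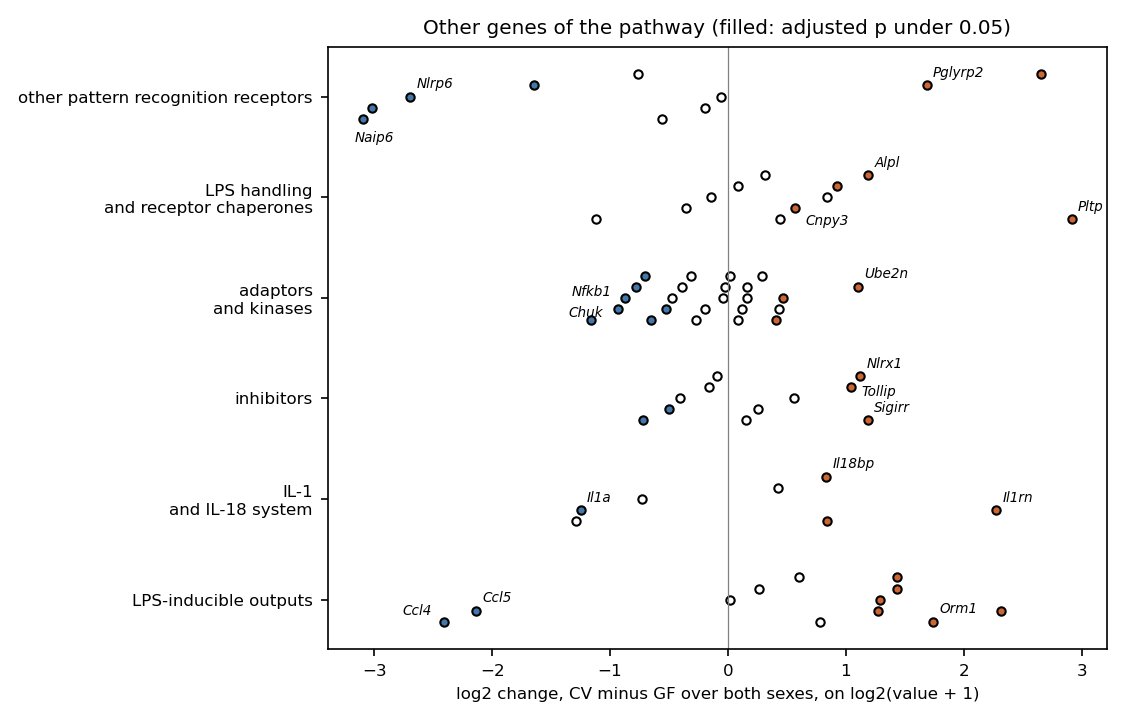
Log2 change (CV minus GF over both sexes) on the x axis for every tested gene of 6 groups of pathway genes, 1 point per gene, filled where the limma adjusted p was under 0.05 and named where the text gives the gene by rule. Receptor genes spread from −3.10 to 2.65, while most of the adaptors and kinases lie within 1 of 0.

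Other marker groups are given for completeness, over both sexes, where 32.3% of all genes tested rose and 28.7% fell. Of the neutrophil and monocyte markers 3 of 10 were tested, with 1 higher and 1 lower, and S100a8 and S100a9 were at 0 reads in 2 libraries each. Stellate cell markers were higher in 2 and lower in 1 of 8, cholangiocyte markers were called in 0 of 5, no adipose marker reached the minimum, and of the pancreatic markers Cela1 alone was tested and rose by 1.30.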

How the data were processed

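RNA from snap-frozen liver was sequenced from stranded poly(A) libraries on an Illumina HiSeq, 1 mouse per library. The authors counted reads per gene with HTSeq 0.6.1p1 on GRCm38 and scaled them with DESeq2, per the submitters' processing notes. The aligner and annotation are not given in the sources used here. The paper named with the series describes another experiment and gave no method. The deposited values are a signal: reads divided by 1 size factor per library, from which whole reads were recovered for 100% of values within 0.01 of a read.

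Genes with a mean value of at least 10 (11782) were tested with limma 3.58.1 (R 4.3.3) on log2(value + 1), with 1 mean for each of the 4 groups, a variance trend, Benjamini-Hochberg adjustment over all genes and a threshold of 0.05. P-values measure the spread between mice. On the recovered reads, edgeR 4.0.16 with the deposited size factors called 7678 genes and DESeq2 1.42.0 called 8461 over both sexes, against 7194 with limma. In all, 23 alternatives were tried. Gene identifiers matched GENCODE M21 for 97.9% of genes.

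The members and gene lists were chosen with earlier results of these data known. Named from each list were the 3 called genes with the smallest adjusted p over both sexes and the 2 most abundant tested genes that were not called. The text names some of the latter only. Like profiles are the 3 nearest tested genes.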

Additional observations from a re-analysis of the deposited data

Results flagged for a closer look

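Cd14 in GF female 2 measured 45.2, away from the other 5 GF libraries, which lay between 11.5 and 22.4. The gap to the nearest library was 0.677 of the range of the 6 GF libraries, above Dixon's critical value. The value rested on 17 reads. Of 18 sets of 6 libraries examined (9 genes in 2 conditions) this was the 1 that stood out, and chance marks about 1 set in 20.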

How the results depend on the processing

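The calls of Lbp, Myd88 and Il1r1 over both sexes held under both edgeR fits, DESeq2, both other pseudocounts, no filter on low values and all 12 fits without 1 library. The number of members called over both sexes, 3 as reported, was 5 when scaled to all reads, 1 when scaled to reads outside the abundant loci and 0 with the mitochondrial ribosomal RNA share as covariate. In males the 2 calls became 1 outside the abundant loci, 0 with the covariate and 0 once the length and GC trend was taken out. Scaled to all reads they numbered 2, with Myd88 in place of Il1r1. In females they became 4 when scaled to all reads, 0 with the covariate, 1 with the trend removed and 3 outside the abundant loci, where Lbp was lost and Nod1 and Tlr5 were gained. The Lbp call between the sexes became 0 when scaled to all reads. Over all genes, the covariate fit called 0 over both sexes, 3 in males, 0 in females and 1 for the difference between the sexes in the change. For that difference, where limma called 0, DESeq2 called 23 and scaling to all reads 11. DESeq2 called 258 genes between males and females, against 137. The causes of these shifts were not tested, apart from the covariate, for which differences among the groups made up 93.5% of the variance.

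Leaving out 1 library gave 3 to 4 members over both sexes, 1 to 3 in males, 2 to 3 in females, and 0 to 1 between the sexes. For all genes it gave 1604 to 3884 in males, with 1604 on dropping GF male 1, 2135 on dropping GF male 3 and 2183 on dropping CV male 1. It gave 0 to 291 for the difference in the change, 291 without CV male 1 and 4 without CV male 3, and 90 to 205 between males and females, the lowest without GF male 3 and equally without CV female 1. Myd88 gained a call in males without GF male 2 (0.86) or CV male 2 (0.86), and in females without GF male 2 (0.63) or CV male 1 (0.63).

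With the covariate, 5 pathway genes called in the reported fit took the opposite sign without passing the test: Naip6 at 1.01, Alpl at −1.15, Cnpy3 at −0.81, Nlrx1 at −1.68 and Il1a at 0.22. Alpl (0.74), Nlrx1 (0.67), Cnpy3 (0.11) and Il18bp (0.38) were not called when scaled to reads outside the abundant loci, nor were Nfkb1 (−0.31) and Chuk (−0.37) when scaled to all reads.

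Replicate numbers were shared between groups, but the labels do not say that they pair the samples. After centring on group means, same-numbered GF and CV libraries had correlations of −0.23 to 0.02. With 3 libraries per group, these values cannot show whether any were littermates. With the replicate number as a block, limma called 7228 genes over both sexes, 3466 in males, 6630 in females, 0 for the difference in the change and 144 between the sexes, and it altered no member's call. Low depth limits Tlr4, Tlr2 and Cd14, whose lowest libraries held 1, 2 and 6 reads.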
